A study of Schmidtea mediterranea with 64 samples.

Results

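The transcripts described here were lower in planarian X1 cells after knockdown of *mll1/2* at both sampled days while staying within a narrow window after knockdown of *set1*. X1 cells are the Hoechst-sorted fraction of cycling stem cells. The members were chosen from the values themselves. An ID was eligible if its mean RPKM (reads scaled to transcript length and library size) was at least 1 over the 16 libraries of both X1 tables. The change was the mean log2(RPKM + 0.5) of the 4 knockdown libraries minus that of the 4 control libraries of the same day. Members had *mll1/2* changes of -1 or less at days 9 and 12 and a *set1* change between -0.5 and 0.5 at day 9. The rule kept 108 of 12231 eligible IDs, out of 28173 IDs listed in the 4 tables.

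Set1 and MLL1/2 belong to the COMPASS-type enzymes, which place methyl groups on lysine 4 of histone H3, a mark of active promoters in animals. In planarians X1 cells are the proliferating neoblasts, the stem cells that renew every tissue of the adult, and whole worms hold these cells together with all their differentiated progeny. MLL1/2 is known in planarians for its part in motile cilia and locomotion, and Set1 for maintaining the stem cells. The files give transcript IDs only, so no member is named by gene, no pathway was counted, and neither the knocked-down genes nor the markers of X1 cells could be looked up.

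The study fed *Schmidtea mediterranea* with liver paste holding bacteria that made double-stranded RNA against *mll1/2*, *set1* or *unc22*, the last being a control with no target in the worm. *mll1/2*(RNAi) X1 cells and whole worms were taken after 9 and 12 days, and *set1*(RNAi) X1 cells and whole worms after 6 and 9 days. Each of these 8 groups had its own *unc22*(RNAi) group of the same experiment, tissue and day, which makes 16 groups of 4 libraries. RNA interference lowers a transcript without deleting the gene, and all groups ate RNAi food. The labels do not say whether libraries came from separate animals or sorts, so p-values measure the spread between these libraries, which may be technical.

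Read totals were 9.50 to 14.4 M reads in the *mll1/2* X1 libraries, 12.6 to 18.3 M in the *set1* X1 libraries and 16.4 to 22.5 M in whole worms. In the *mll1/2* X1 table, *unc22*(RNAi) replicates 2, 3 and 4 of day 12 stood apart on the first principal component, at scores of 49.5, 74.9 and 52.6, whereas replicate 1 of the same group was at -19.0 and no other library exceeded 12.9. The members' day 12 changes in X1 cells are therefore recomputed below against other control libraries. Other day 12 figures in X1 cells use all 4 control libraries. In a bulk sample, fewer cells of a type and less RNA per cell cannot be told apart.

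In the 2 *mll1/2* X1 comparisons, which chose the members, the median change was -1.38 at day 9 and -1.58 at day 12, against 0.04 and -0.13 over all eligible IDs. Changes ran from -3.11 to -1.01 at day 9 and from -3.54 to -1.0002 at day 12. Of the members, 81 had a lower change at day 12 than at day 9, 10 were at -2 or less at both days, and the changes of the 2 days correlated across the 108 transcripts (Pearson's r = 0.71, a description only). All 4 *mll1/2*(RNAi) libraries lay below all 4 *unc22*(RNAi) libraries for 102 members at day 9 (6.07% of eligible IDs) and for 101 at day 12 (13.8%). In *set1*(RNAi) X1 cells at day 9 the same held for 8 members (20.3%), where the median change was -0.11, against -0.02 over all eligible IDs. These figures restate the rule and carry no test.

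The values rest on few reads. A member had a median of 14.5 reads per library in *mll1/2*(RNAi) X1 cells at day 9 and 12.3 at day 12, against 53.4 and 51.1 in *unc22*(RNAi) X1 cells. In 22 members at least 1 *mll1/2*(RNAi) library of day 9 held fewer than 3 reads, as did 21 members at day 12, against 1 member at each day in *unc22*(RNAi). No member was at 0 in all 4 libraries of any group.

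**Figure D1:**
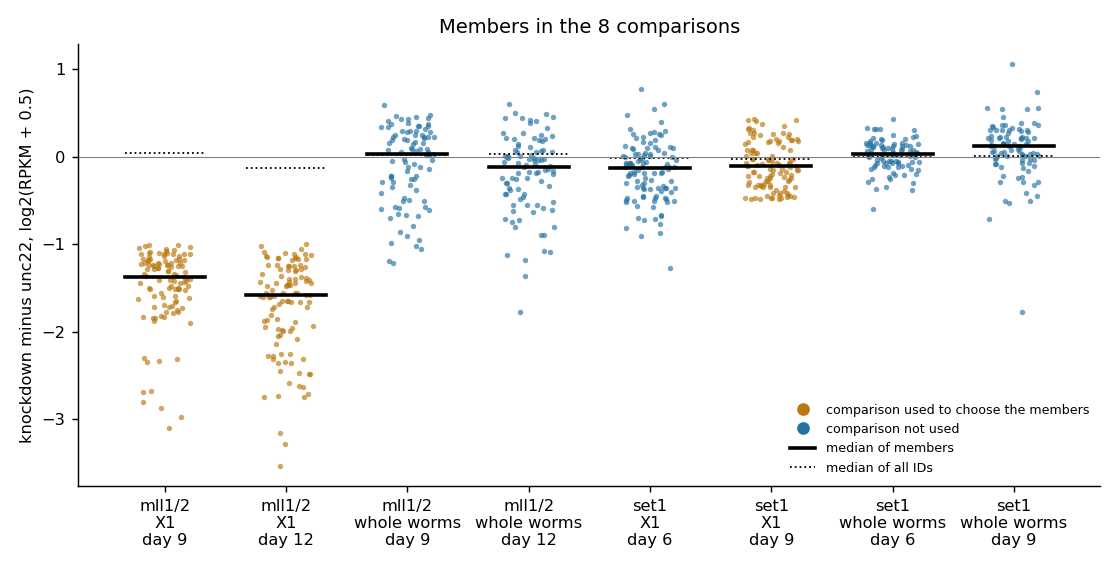
Change of each member in the 8 comparisons, as knockdown minus *unc22*(RNAi) on the log2(RPKM + 0.5) scale (vertical axis), with 1 point per transcript, a thick line at the members' median and a dotted line at the median of all IDs, while orange marks the 3 comparisons that chose the members. The members lie at -1.0002 or below in *mll1/2* X1 cells, and their medians in the other comparisons run from -0.13 to 0.12.

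The rule's edges were narrow. SMED30009191 was the member nearest the *mll1/2* limit, at -1.23 on day 9 and -1.0002 on day 12. SMED30012646 missed it with -0.99 and -1.18. At the lower *set1* limit SMED30017162 was inside at -0.49 and SMED30005607 outside at -0.51. At the upper *set1* limit SMED30003676 was inside at 0.43 and SMED30005624 outside at 0.501. In all, 220 eligible IDs met both *mll1/2* limits, of which 101 were set aside for a *set1* change below -0.5 and 11 for one above 0.5.

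The 4 members with the lowest mean change were all present at several RPKM in control X1 cells. SMED30010507, a transcript of 1683 bases, had 0.854, 0.196, 0.314 and 0.463 RPKM in *mll1/2*(RNAi) X1 cells at day 9, against 5.38, 5.76, 7.01 and 5.97 RPKM in *unc22*(RNAi). Its values of day 12 were 0.112, 0.162, 0.395 and 0.542 RPKM in *mll1/2*(RNAi), against 6.74, 9.99, 9.64 and 8.39 RPKM in *unc22*(RNAi). The groups were far apart at both days, with changes of -2.81 and -3.54. In *set1*(RNAi) X1 cells the same transcript had a change of 0.32 at day 9.

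SMED30027670 (678 bases) was the most abundant of the 4. It had 4.64, 4.05, 5.77 and 3.71 RPKM in *mll1/2*(RNAi) X1 cells at day 9, against 31.9, 33.8, 31.3 and 29.1 RPKM in *unc22*(RNAi). On day 12 it stood at 2.22, 2.81, 2.33 and 3.06 RPKM in *mll1/2*(RNAi), against 29.0, 24.6, 29.6 and 25.7 RPKM in *unc22*(RNAi). Every knockdown library was at least several times below every control library, with changes of -2.68 and -3.16.

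SMED30015731 (319 bases) was low and uneven after knockdown. It had 2.82, 0.345, 2.65 and 1.09 RPKM in *mll1/2*(RNAi) X1 cells at day 9, against 12.8, 18.3, 16.3 and 12.1 RPKM in *unc22*(RNAi). At day 12 it had 2.66, 1.14, 1.04 and 1.30 RPKM in *mll1/2*(RNAi), against 10.9, 13.2, 9.31 and 16.6 RPKM in *unc22*(RNAi). The groups did not overlap, and the changes were -2.97 and -2.71. SMED30008243 (609 bases) had 0.295, 0.902, 0.868 and 0.569 RPKM in *mll1/2*(RNAi) X1 cells at day 9, against 8.76, 11.6, 9.37 and 7.69 RPKM in *unc22*(RNAi), the lowest day 9 change of any member (-3.11). Its values of day 12 were 1.86, 1.49, 0.546 and 0.545 RPKM in *mll1/2*(RNAi), against 6.68, 8.17, 9.10 and 7.07 RPKM in *unc22*(RNAi), a change of -2.45, again without overlap.

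The 3 members most abundant in control X1 cells kept a larger share of their level than these 4. SMED30017629 (254 bases) had 37.1, 35.9, 47.9 and 27.3 RPKM in *mll1/2*(RNAi) X1 cells at day 9, against 92.2, 117, 108 and 99.3 RPKM in *unc22*(RNAi). On day 12 it stood at 17.8, 28.6, 27.8 and 27.7 RPKM in *mll1/2*(RNAi), against 87.6, 81.7, 76.0 and 95.4 RPKM in *unc22*(RNAi). The changes were -1.50 and -1.74, with no overlap at either day.

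SMED30016599 (1349 bases) had 50.7, 51.2, 50.2 and 50.03 RPKM in *mll1/2*(RNAi) X1 cells at day 9, against 94.4, 134, 112 and 103 RPKM in *unc22*(RNAi). At day 12 it had 19.2, 20.0, 29.4 and 40.2 RPKM in *mll1/2*(RNAi), against 118, 59.4, 50.8 and 71.0 RPKM in *unc22*(RNAi). Here the control replicate 1, the one that lay with the main body of libraries, was the highest of its group, and the groups did not overlap. SMED30016283 (234 bases) averaged 21.6 ± 8.61 RPKM in *mll1/2*(RNAi) X1 cells and 68.4 ± 12.2 RPKM in *unc22*(RNAi) at day 9, and 14.7 ± 2.88 RPKM in *mll1/2*(RNAi) and 58.5 ± 11.7 RPKM in *unc22*(RNAi) at day 12 (SD, n = 4 each).

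**Figure D2:**
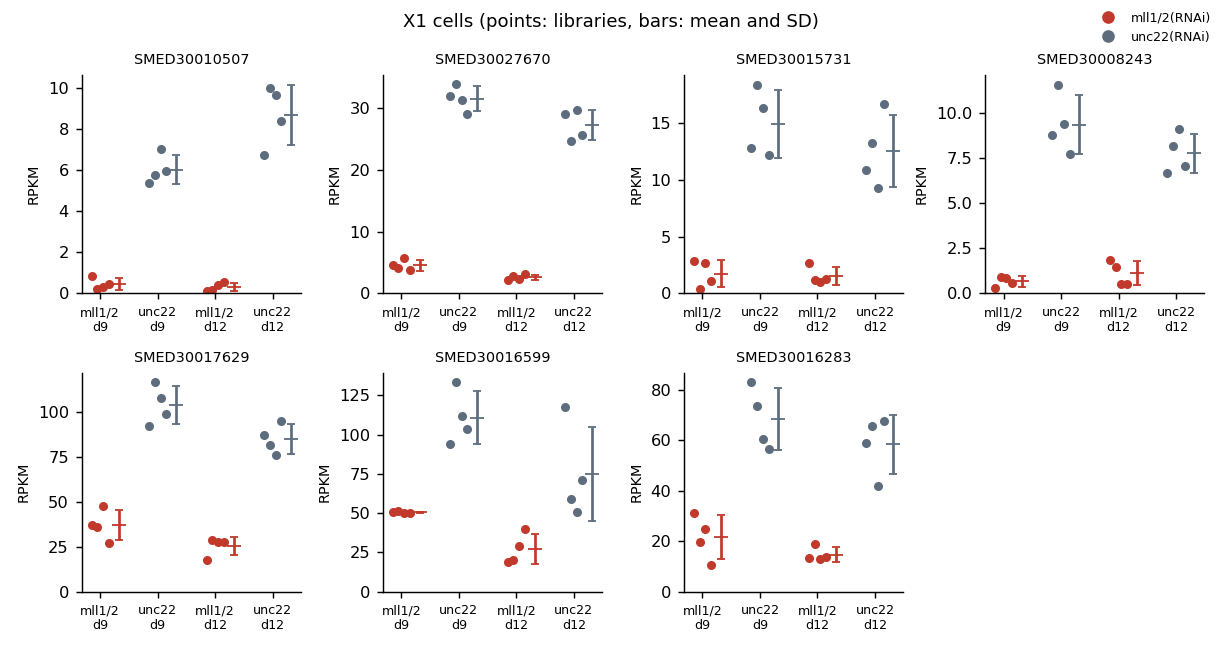
RPKM of 7 members in X1 cells (vertical axes, from 0), with *mll1/2*(RNAi) in red left of *unc22*(RNAi) in grey at day 9 and at day 12, where points are libraries and bars are the mean and SD of 4 libraries. SMED30010507 stays at 0.854 RPKM or less in the knockdown, and SMED30017629 stays at 17.8 RPKM or more.

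Day 12 changes were recomputed against other control libraries. Against *unc22*(RNAi) replicate 1 alone the members' median was -1.63 and 92 of 108 were still at -1 or less. Against replicates 2, 3 and 4 the median was -1.61 with 103 at -1 or less, and against the 4 *unc22*(RNAi) X1 libraries of day 9 it was -1.72 with 98 at -1 or less. The 4 choices of control gave like medians, and single members moved more than the median did.

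The 4 members with the lowest changes stayed low under each control. Against replicate 1 alone SMED30010507 was at -3.21, SMED30027670 at -3.26, SMED30015731 at -2.55 and SMED30008243 at -2.26. Another 3 members, picked out after their values were seen, went above 0 against replicate 1 alone. SMED30014219 was at 0.18, SMED30017380 at 0.15 and SMED30032624 at 0.05, against -1.15, -1.02 and -1.48 with all 4 control libraries. SMED30032624 averaged 4.52 RPKM in *mll1/2*(RNAi) X1 cells at day 12, against 15.5 RPKM in *unc22*(RNAi) of day 12 and 5.66 RPKM in *unc22*(RNAi) of day 9, so its day 12 membership rests on the control libraries that stood apart.

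**Figure D3:**
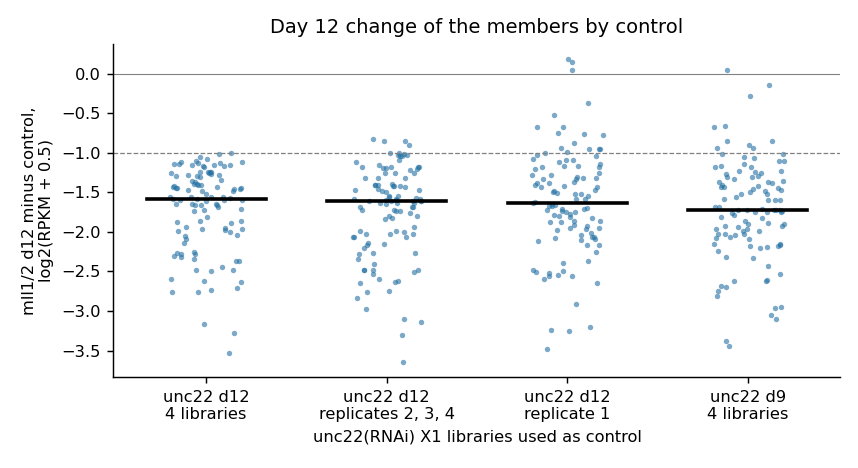
Day 12 change of the 108 members in X1 cells, as *mll1/2*(RNAi) minus *unc22*(RNAi) on the log2(RPKM + 0.5) scale (vertical axis), for 4 choices of control libraries (horizontal axis), where points are transcripts, thick lines are medians and the dashed line is the rule's limit of -1. The medians lie between -1.72 and -1.58, and the highest member reaches 0.18 against replicate 1 alone.

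The members were set beside all eligible IDs in length and level. Their median length was 820 bases, against 1207 bases over all 12231. In *unc22*(RNAi) X1 cells of day 6 from the *set1* experiment, libraries that entered the rule through the minimum mean RPKM but not through a change, the median member stood at 5.16 RPKM (from 1.25 to 86.3), against 10.9 RPKM over all eligible IDs. In *unc22*(RNAi) whole worms of the same day and experiment the median was 10.8 RPKM over the 103 members listed, against 13.8 RPKM over 12042 eligible IDs. Across members the X1 level of these libraries had little relation to the *mll1/2* X1 change, with r = -0.13 at day 9 and -0.22 at day 12 (n = 108, description only).

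A large part of the members was more abundant in whole worms than in X1 cells. The log2 difference of mean log levels, X1 minus whole worms, in these day 6 controls had a median of -0.79 over 103 members, against 0.25 over 12042 eligible IDs. X1 and whole-worm tables were normalised separately, so this scale orders transcripts but its zero point is not calibrated. By it, 33 members were at least 2-fold higher in X1 cells, 48 at least 2-fold higher in whole worms and 22 within 2-fold, and the other 5 were without a value in that whole-worm table. The median *mll1/2* X1 change differed little among these classes, at -1.42, -1.35 and -1.44 at day 9.

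The extremes of this scale were far apart in the *mll1/2* experiment too. SMED30010356 (417 bases) averaged 49.9 ± 2.04 RPKM in *unc22*(RNAi) X1 cells at day 9 and 1.48 ± 0.465 RPKM in whole worms, and SMED30017162 (832 bases) averaged 20.8 ± 1.27 RPKM in X1 cells and 0.835 ± 0.161 RPKM in whole worms (SD, n = 4 each). At the other end SMED30020872 (3479 bases) averaged 1.68 ± 0.207 RPKM in X1 cells and 74.7 ± 1.52 RPKM in whole worms. SMED30003676 (569 bases) averaged 7.54 ± 2.33 RPKM in X1 cells and 1616 ± 742 RPKM in whole worms. Both ends were lower in *mll1/2*(RNAi) X1 cells by the rule, but SMED30003676 lay near its limit, with a day 9 change of -1.01. At day 9 it ran from 2.04 to 6.32 RPKM in *mll1/2*(RNAi) X1 cells and from 4.45 to 10.1 RPKM in *unc22*(RNAi), overlapping groups. Its day 12 change against *unc22*(RNAi) replicate 1 alone was -0.87. The X1 groups of SMED30010356, SMED30017162 and SMED30020872 did not overlap at either day.

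Whole worms gave a measure of the members that the rule did not use. Of the 108 members, 101 were listed in the *mll1/2* whole-worm table and 92 passed the filter of a mean RPKM of at least 1 for testing. At day 9 limma called 23 of them at an adjusted p under 0.05, 16 lower (5.06% of the 18443 IDs tested were lower) and 7 higher (4.01%) after *mll1/2*(RNAi). The members' shares were 17.4% lower and 7.61% higher. The median change over members was 0.03, the same as over all IDs tested (0.03), and the called changes ran from -1.21 to -0.41 and from 0.30 to 0.60. At an unadjusted p under 0.05 there were 23 lower and 19 higher. The share of all IDs at that threshold was not counted, so these 2 counts have no background. All 4 *mll1/2*(RNAi) libraries lay below all 4 *unc22*(RNAi) libraries for 19 members (7.69% of IDs tested) and above them for 11 (8.87%). The filter bears on the lower calls. Among members at least 2-fold higher in X1 cells, 4 of those called lower reached a mean of 1 RPKM in *unc22*(RNAi) only. No filter gave 18 lower and 7 higher among 101 members, and 942 lower and 612 higher over 24843 IDs.

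At day 12, 17 of 92 were called by limma, 13 lower (3.35% of IDs tested) and 4 higher (2.57%), or 14.1% and 4.35% of members. The median change was -0.11 over members and 0.03 over all IDs tested, and the libraries did not overlap for 19 members on the lower side (6.93%) and 7 on the higher (7.94%). Scaling each library to its median gave 16 lower and 2 higher at day 12, and the fit on recovered reads (limma-voom) gave 14 lower and 2 higher. Over all IDs median scaling gave 688 lower and 274 higher and limma-voom 706 and 470, against 617 and 474 in the main fit. The shift towards lower calls was thus shared by all IDs. Same-numbered libraries of day 12 deviated together, and pairing them in the fit gave 17 lower and 4 higher. Over all 18443 IDs the paired fit gave 864 lower and 534 higher. Of the 16 members lower at day 9 and the 13 lower at day 12, 10 were in both lists (1.8% of all IDs tested), and 2 members were higher at both days (1.25%). The filter bears on the lower calls of day 12 too. Among members at least 2-fold higher in X1 cells, 3 of those called lower reached a mean of 1 RPKM in *unc22*(RNAi) only. No filter gave 15 lower and 2 higher among 101 members at day 12, and 563 lower and 387 higher over 24843 IDs. The effects of the days were compared by limma's interaction test, which called 0 of the 92 members (0% of 18443 IDs). At an unadjusted p under 0.05 it gave 5 members and 855 IDs.

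These counts moved with single libraries, and so did those over all 18443 IDs tested, which were 1674 at day 9 and 1091 at day 12 with every library. Leaving out control replicate 1 of day 9 gave 11 calls (636 over all IDs) and control replicate 2 gave 14 (668). Knockdown replicate 2 left out gave 15 (1018). For day 12 the count became 11 (577) when knockdown replicate 2 was dropped, 8 (253) for knockdown replicate 3 and 9 (318) for knockdown replicate 4. It was 11 for control replicate 2 (456) or 3 (572). Weighting the libraries by their fit raised the counts to 52 (24 lower, 28 higher) at day 9 and 42 (25 lower, 17 higher) at day 12, and under that setting 30.2% and 31.1% of all IDs tested were called. The median log2 level of the tested members was 4.05 in *unc22*(RNAi) replicate 1 of day 12 and 3.69 to 3.81 in the other 3 controls of that day.

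SMED30015731, among the lowest in X1 cells, was also the lowest called member in whole worms at day 12. It had 1.40, 0.479, 0.719 and 1.04 RPKM in *mll1/2*(RNAi) whole worms at day 9, against 3.26, 2.66, 1.69 and 3.10 RPKM in *unc22*(RNAi). Its values of day 12 were 0.647, 0.303, 0.437 and 0.740 RPKM in *mll1/2*(RNAi), against 5.66, 2.47, 1.87 and 2.85 RPKM in *unc22*(RNAi). The groups did not overlap at either day, and the log2 fold changes (log2FC) were -1.19 ± 0.28 (SE from limma, adjusted p = 0.014) and -1.77 ± 0.28 (adjusted p = 0.0027). Its means were 0.909 and 0.532 RPKM in *mll1/2*(RNAi) and 2.68 and 3.21 RPKM in *unc22*(RNAi). It thus passed the filter of 1 RPKM only through *unc22*(RNAi). The day 9 call was lost without *mll1/2*(RNAi) replicate 2 (adjusted p = 0.051) and without *unc22*(RNAi) replicate 1 (adjusted p = 0.062).

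SMED30033647 (437 bases) had the lowest called change of day 9. It had 0.682, 0.699, 0.735 and 0.632 RPKM in *mll1/2*(RNAi) whole worms at day 9, against 1.86, 2.66, 2.06 and 2.48 RPKM in *unc22*(RNAi), with a log2FC of -1.21 ± 0.26 (SE from limma, adjusted p = 0.0090). On day 12 it stood at 0.354, 0.332, 1.06 and 0.865 RPKM in *mll1/2*(RNAi), against 1.42, 1.06, 2.39 and 3.40 RPKM in *unc22*(RNAi), with a log2FC of -1.12 ± 0.26 (limma, adjusted p = 0.022). The day 9 groups were well apart, and at day 12 the highest knockdown library stood level with the lowest control library, at 10 reads each. The day 12 call was lost without *mll1/2*(RNAi) replicate 1 (adjusted p = 0.053) or 2 (0.061) or *unc22*(RNAi) replicate 3 (0.058). The means of SMED30033647 were 0.687 and 0.653 RPKM in *mll1/2*(RNAi) and 2.27 and 2.07 RPKM in *unc22*(RNAi). It thus passed the filter of 1 RPKM only through *unc22*(RNAi).

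SMED30017629, abundant in control X1 cells, was rare in whole worms. It had 4.30, 3.81, 2.71 and 3.69 RPKM in *mll1/2*(RNAi) whole worms at day 9, against 4.09, 7.92, 7.97 and 7.24 RPKM in *unc22*(RNAi). At day 12 it had 2.23, 3.99, 2.92 and 2.79 RPKM in *mll1/2*(RNAi), against 8.82, 6.76, 6.45 and 7.16 RPKM in *unc22*(RNAi). Groups overlapped at day 9 through control replicate 1 and were apart at day 12, with log2FC values of -0.80 ± 0.20 (SE from limma, adjusted p = 0.019) and -1.18 ± 0.20 (adjusted p = 0.0040). The day 9 call was lost without *mll1/2*(RNAi) replicate 3 (adjusted p = 0.053) or *unc22*(RNAi) replicate 2 (0.079) or 3 (0.055).

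SMED30013596 (2871 bases) had 0.951, 0.497, 0.831 and 0.654 RPKM in *mll1/2*(RNAi) whole worms at day 9, against 1.59, 2.12, 1.85 and 1.40 RPKM in *unc22*(RNAi). Its values of day 12 were 0.269, 0.723, 0.501 and 0.444 RPKM in *mll1/2*(RNAi), against 1.11, 1.78, 1.7997 and 1.67 RPKM in *unc22*(RNAi). It fell without overlap at both days, with log2FC values of -0.86 ± 0.18 (SE from limma, adjusted p = 0.0078) and -1.09 ± 0.18 (adjusted p = 0.0037). Its means were 0.733 and 0.485 RPKM in *mll1/2*(RNAi) and 1.74 and 1.59 RPKM in *unc22*(RNAi). It thus passed the filter of 1 RPKM only through *unc22*(RNAi), the group where it was high. SMED30027670, low in X1 cells at both days, averaged 6.28 ± 1.09 RPKM in *mll1/2*(RNAi) whole worms and 13.5 ± 1.84 RPKM in *unc22*(RNAi) at day 9, with a log2FC of -1.05 ± 0.17 (limma, adjusted p = 0.0019), and 6.54 ± 0.280 RPKM in *mll1/2*(RNAi) and 13.0 ± 3.96 RPKM in *unc22*(RNAi) at day 12, with a log2FC of -0.89 ± 0.17 (limma, adjusted p = 0.0088). Neither transcript lost a call when a library was left out.

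There were 2 members that rose in whole worms at both days while their mean X1 levels lay below control. In X1 cells the groups of SMED30027818 did not overlap at either day, and those of SMED30025181 overlapped at day 9. SMED30027818 (700 bases) had 111, 95.6, 81.5 and 97.1 RPKM in *mll1/2*(RNAi) whole worms at day 9, against 55.9, 58.9, 68.0 and 71.1 RPKM in *unc22*(RNAi), with a log2FC of 0.60 ± 0.09 (SE from limma, adjusted p = 0.0019). On day 12 it stood at 99.02, 91.5, 92.5 and 92.5 RPKM in *mll1/2*(RNAi), against 70.6, 70.5, 69.4 and 65.7 RPKM in *unc22*(RNAi), with a log2FC of 0.44 ± 0.09 (limma, adjusted p = 0.017, and 0.053 without *mll1/2*(RNAi) replicate 3). All knockdown libraries were above all controls at both days.

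SMED30025181 (869 bases) had 71.2, 71.5, 63.97 and 77.7 RPKM in *mll1/2*(RNAi) whole worms at day 9, against 43.6, 45.5, 58.4 and 57.4 RPKM in *unc22*(RNAi), with a log2FC of 0.48 ± 0.14 (SE from limma, adjusted p = 0.040). At day 12 it had 63.6, 69.2, 66.6 and 63.5 RPKM in *mll1/2*(RNAi), against 33.2, 53.0, 53.1 and 51.2 RPKM in *unc22*(RNAi), with a log2FC of 0.49 ± 0.14 (limma, adjusted p = 0.048). The whole-worm groups did not overlap, but both calls stood near the threshold. The day 9 call was lost without *mll1/2*(RNAi) replicate 1, 2 or 4 or *unc22*(RNAi) replicate 1 or 2 (adjusted p from 0.082 to 0.152), and the day 12 call without any *mll1/2*(RNAi) library or *unc22*(RNAi) replicate 1, 2 or 3 (from 0.057 to 0.122). Median scaling ended the day 12 call as well (adjusted p = 0.074). In X1 cells at day 9 it reached 1.86 RPKM in *mll1/2*(RNAi), from 3 to 18 reads per library, and *unc22*(RNAi) went down to 1.81 RPKM. At day 12 its X1 level was at most 1.77 RPKM in *mll1/2*(RNAi) and ran from 2.49 to 11.8 RPKM in *unc22*(RNAi). Its day 12 X1 change was -2.26 with all 4 control libraries and -1.18 against replicate 1 alone.

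SMED30010775 (495 bases) had the highest called change of day 12. It had 13.2, 13.2, 14.6 and 17.6 RPKM in *mll1/2*(RNAi) whole worms, against 8.80, 8.72, 10.2 and 13.5 RPKM in *unc22*(RNAi), with a log2FC of 0.50 ± 0.14 (SE from limma, adjusted p = 0.048). The groups overlapped through control replicate 4. The call was lost without any *mll1/2*(RNAi) library or *unc22*(RNAi) replicate 1, 2 or 3 (adjusted p from 0.059 to 0.159), and after median scaling (adjusted p = 0.056).

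**Figure D4:**
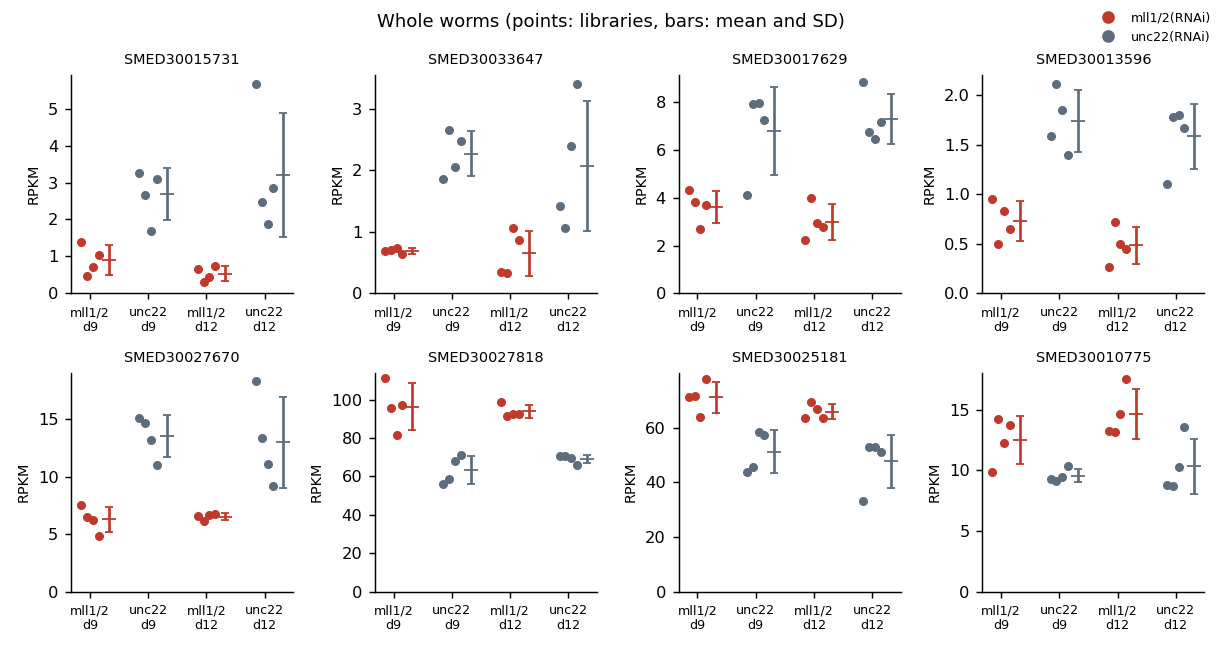
RPKM of 8 members in whole worms (vertical axes, from 0), with *mll1/2*(RNAi) in red left of *unc22*(RNAi) in grey at day 9 and at day 12, where points are libraries and bars are the mean and SD of 4 libraries. SMED30015731, SMED30033647, SMED30017629, SMED30013596 and SMED30027670 were called lower at both days, SMED30027818 and SMED30025181 higher at both days and SMED30010775 higher at day 12. SMED30015731, SMED30033647 and SMED30013596 averaged at least 1 RPKM in *unc22*(RNAi) but not in *mll1/2*(RNAi), so they passed the filter only through *unc22*(RNAi).

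Other members that were low or abundant in X1 cells were not called in whole worms. SMED30008243 averaged 50.6 ± 3.45 RPKM in *mll1/2*(RNAi) whole worms and 63.5 ± 5.94 RPKM in *unc22*(RNAi) at day 9 (SD, n = 4 each), with a log2FC of -0.32 ± 0.17 (SE from limma, adjusted p = 0.28), and its day 12 fold change was -0.38 ± 0.17 (adjusted p = 0.20). SMED30016599 averaged 33.2 ± 6.52 RPKM in *mll1/2*(RNAi) and 31.97 ± 0.619 RPKM in *unc22*(RNAi) at day 9, and SMED30016283 22.01 ± 4.75 RPKM in *mll1/2*(RNAi) and 21.6 ± 3.61 RPKM in *unc22*(RNAi). At day 12 SMED30016599 averaged 31.5 ± 3.697 RPKM in *mll1/2*(RNAi) and 40.7 ± 15.7 RPKM in *unc22*(RNAi), and SMED30016283 19.7 ± 2.37 RPKM in *mll1/2*(RNAi) and 22.6 ± 6.38 RPKM in *unc22*(RNAi). For both transcripts the means differed by less than the larger SD of the groups at each day, and SMED30008243 was called at day 9 only when libraries were weighted (adjusted p = 0.0094).

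Calls in whole worms were also counted by the X1 to whole-worm level of the day 6 controls, which come from another experiment than the *mll1/2* fits. Among 22 tested members at least 2-fold higher in X1 cells, 7 were called lower and 0 higher by limma at day 9, and 7 lower and 0 higher at day 12. All eligible IDs of that class were lower in 1.63% and 3.40% and higher in 1.34% and 0.48% of 3733 cases. With so low a share higher in the class, 0 higher among 22 members says little. The median change of these members was -0.42 at day 9 and -0.45 at day 12, against 0.04 and -0.00 over the class. Of these members 17 were below 0 at day 9 and 21 at day 12, against 1448 and 1891 of 3733 IDs of the class. The filter bears on these values, since 5 of the 22 at day 9 and 6 at day 12 had a mean of at least 1 RPKM in *unc22*(RNAi) but not in *mll1/2*(RNAi), among them 4 and 3 of the 7 called lower. Without the filter 29 members entered, and 9 were lower and 0 higher at each day. Over all 24843 IDs that setting gave 942 lower and 612 higher at day 9, and 563 lower and 387 higher at day 12. With the filter, the count of the 22 called lower lay between 4 and 6 at day 9 and between 5 and 7 at day 12 when single libraries were left out. Limma-voom gave 8 lower and 0 higher at both days (1110 and 676 over all IDs at day 9, and 706 and 470 at day 12). Weighting the libraries gave 8 lower and 1 higher at day 9 (2368 and 3195 over all IDs). The lowest count, 4, came without *unc22*(RNAi) replicate 1.

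Among 48 tested members at least 2-fold higher in whole worms, 8 were lower and 7 higher at day 9, and 5 lower and 3 higher at day 12. The class as a whole was lower in 7.63% and 4.59% and higher in 5.45% and 2.65% of 3617 IDs. The median changes of these members were 0.13 and -0.02. Their day 9 count became 4 lower without *mll1/2*(RNAi) replicate 2 (682 over all IDs). It was 3 lower and 3 higher without *unc22*(RNAi) replicate 1 (434 and 202) and 5 lower and 3 higher without *unc22*(RNAi) replicate 2 (466 and 202). Weighting the libraries gave 14 lower and 20 higher (2368 and 3195 over all IDs). Shares of the class were counted in the main fit only. At day 12, leaving out any 1 of the 8 libraries gave between 2 and 6 lower and between 0 and 5 higher (138 to 839 and 115 to 672 over all IDs). The replicate block, which pairs the libraries of that day, gave 8 lower and 3 higher (864 and 534 over all IDs). Weighting gave 11 lower and 10 higher (2507 and 3224 over all IDs). The remaining 21 tested members within 2-fold gave 1 lower and 0 higher at day 9, and 1 lower and 1 higher at day 12, where the class was lower in 2.37% and 2.60% and higher in 2.76% and 1.51% of 3839 IDs. Across 91 members the whole-worm change was lower where the X1 to whole-worm difference was higher (r = -0.34 at day 9 and -0.43 at day 12), while over 11189 eligible IDs r was 0.18 and 0.08. The filter bears on r as well, through the 5 members at day 9 and 6 at day 12 that reached 1 RPKM in *unc22*(RNAi) only. The points also share libraries, so these are descriptions, and no difference between members and all IDs was tested.

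**Figure D5:**
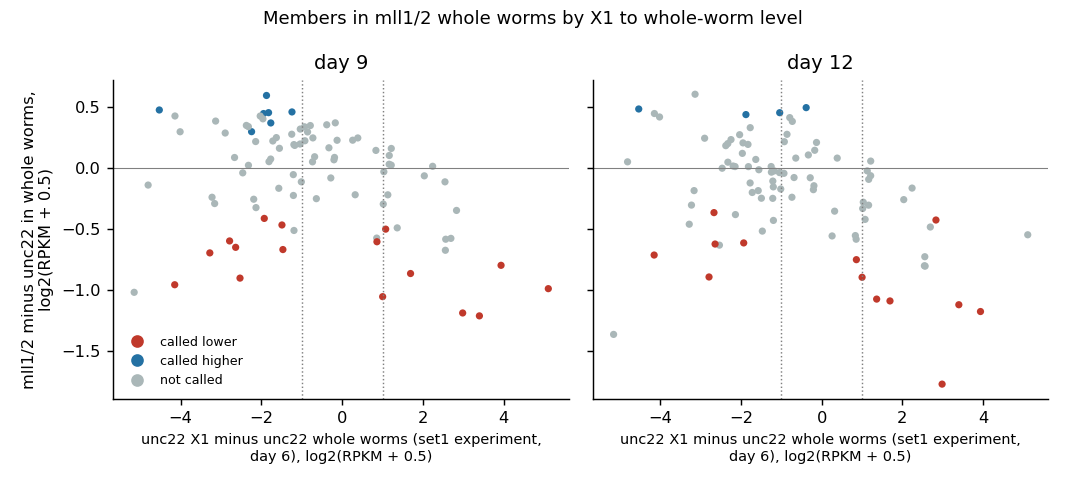
Log2 fold change of the members after *mll1/2*(RNAi) in whole worms (vertical axis) against their X1 minus whole-worm log2 difference in *unc22*(RNAi) libraries of the *set1* experiment at day 6 (horizontal axis), at day 9 and day 12, where points are transcripts, coloured by limma's call at an adjusted p under 0.05, and dotted lines mark 2-fold. Right of the right-hand line 7 members were called lower and none higher at each day. Of these, 4 at day 9 and 3 at day 12 had a mean of at least 1 RPKM in *unc22*(RNAi) but not in *mll1/2*(RNAi).

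SMED30010356, the member with the highest X1 to whole-worm ratio, shows how thin whole-worm reads become at that end. It averaged 0.507 ± 0.268 RPKM in *mll1/2*(RNAi) whole worms and 1.48 ± 0.465 RPKM in *unc22*(RNAi) at day 9 (SD, n = 4 each), from 1 to 6 reads per library in *mll1/2*(RNAi) and 8 to 17 in *unc22*(RNAi). The log2FC was -0.99 ± 0.29 (SE from limma, adjusted p = 0.043), and at day 12 it was -0.55 ± 0.29 (adjusted p = 0.27). At day 12 the means were 0.863 RPKM in *mll1/2*(RNAi) and 1.56 RPKM in *unc22*(RNAi). SMED30010356 thus passed the filter of 1 RPKM only through *unc22*(RNAi). The day 9 call was lost without any library of the 2 groups other than *unc22*(RNAi) replicate 3 (adjusted p from 0.051 to 0.138). SMED30017162 lay under the whole-worm filter and was not tested there.

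The 3 members listed in neither whole-worm table were scarce in X1 cells. SMED30010752 (350 bases) averaged 0.795 ± 0.418 RPKM in *mll1/2*(RNAi) X1 cells and 2.497 ± 0.647 RPKM in *unc22*(RNAi) at day 9 (SD, n = 4 each). SMED30004397 (322 bases) averaged 0.656 ± 0.697 RPKM in *mll1/2*(RNAi) and 2.23 ± 0.564 RPKM in *unc22*(RNAi), and SMED30013713 (644 bases) 0.396 ± 0.285 RPKM in *mll1/2*(RNAi) and 1.78 ± 0.511 RPKM in *unc22*(RNAi). Each of SMED30004397 and SMED30013713 had 1 *mll1/2*(RNAi) library at 0 reads.

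The other transcripts lowered by *mll1/2*(RNAi) in X1 cells were set beside the members in whole worms. Of the 101 IDs with a *set1* change below -0.5, 73 were tested, and 15 were lower and 9 higher at day 9 and 18 lower and 2 higher at day 12, with median changes of -0.13 and -0.18. The members gave 16 lower and 7 higher, and 13 lower and 4 higher, of 92. Whether the 2 sets differ was not tested.

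At day 6 of *set1*(RNAi), which the rule left out, X1 cells held all 108 members above the filter. Limma called 17 lower (13.2% of 13503 IDs tested) and 0 higher (6.64%), or 15.7% of the members lower, a share near that of all IDs. At an unadjusted p under 0.05 there were 27 lower and 2 higher, and the share of all IDs at that threshold was not counted. Limma-voom called 13 lower and 1 higher (1675 and 1079 over all IDs). The median change was -0.13 over members and -0.01 over all IDs tested. Leaving out knockdown library b or d gave 11 calls (1985 and 1812 over all IDs), and control library b gave 10 (1788). With every library 2676 IDs were called. Columns of this table name the group but not the sample, so its libraries are lettered.

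SMED30009105 (449 bases) had the lowest called change. It had 0.866, 2.02, 0.616 and 1.44 RPKM in *set1*(RNAi) X1 cells at day 6, against 3.40, 3.67, 2.67 and 4.47 RPKM in *unc22*(RNAi), without overlap, with a log2FC of -1.27 ± 0.31 (SE from limma, adjusted p = 0.0074). SMED30017204 (714 bases) had the smallest called change, with 27.7, 29.3, 31.2 and 24.7 RPKM in *set1*(RNAi), against 40.4, 41.1, 39.9 and 34.3 RPKM in *unc22*(RNAi), also without overlap (-0.46 ± 0.13, adjusted p = 0.017). Its call was lost without *set1*(RNAi) library d (adjusted p = 0.062) or *unc22*(RNAi) library b (0.051).

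Some members with a small *set1* change at day 9, as the rule requires, were called lower at day 6. SMED30009105, with the lowest called change of day 6, was at 0.01 on day 9 and SMED30017204 at -0.35. The members named next also lay below 0 at day 9. SMED30025755 (624 bases) averaged 6.57 ± 0.580 RPKM in *set1*(RNAi) X1 cells and 12.8 ± 1.48 RPKM in *unc22*(RNAi) at day 6 (SD, n = 4 each), with a log2FC of -0.91 ± 0.13 (SE from limma, adjusted p = 1.1e-04). SMED30033647 averaged 13.5 ± 2.501 RPKM in *set1*(RNAi) and 22.2 ± 1.16 RPKM in *unc22*(RNAi), and fell by 0.71 on the log2 scale (adjusted p = 0.0019). SMED30008243 averaged 7.35 ± 1.66 RPKM in *set1*(RNAi) and 12.1 ± 1.17 RPKM in *unc22*(RNAi), and fell by 0.70 (adjusted p = 0.0054). Their *set1* changes at day 9, which the rule used, were -0.45 for SMED30025755, -0.32 for SMED30033647 and -0.35 for SMED30008243. Whether the day 6 and day 9 effects differ was not tested in X1 cells, because the rule used day 9.

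In *set1*(RNAi) whole worms 103 members were listed and 91 tested. At day 6 limma called 3 lower (10.6% of 19655 IDs tested) and 10 higher (5.91%), and at day 9 it called 12 lower (22.9%) and 32 higher (19.2%). Members were thus lower in 3.30% and 13.2% and higher in 10.99% and 35.2%. The median changes were 0.04 and 0.12 over members, against -0.00 and 0.01 over all IDs tested. Median scaling gave 1 lower and 16 higher at day 6 (1414 and 2348 over all IDs). The count was 8 without *unc22*(RNAi) replicate 3 (2469 over all IDs, against 3247 with every library). At both days 9 members were higher (4.68% of IDs tested), out of 10 and 32, and 2 were lower (9.4%), out of 3 and 12. Over all IDs, 79.1% of those higher at day 6 were also higher at day 9, so this overlap is not particular to the members.

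By X1 to whole-worm level, *set1*(RNAi) whole worms at day 9 gave 1 lower and 5 higher among 21 tested members at least 2-fold higher in X1 cells. All eligible IDs of that class were lower in 44.5% and higher in 6.92% of 3671 cases. Among 48 members at least 2-fold higher in whole worms, 7 were lower and 22 higher, where the class was lower in 18.4% and higher in 34.5%. The *set1* window of the rule was set in X1 cells of the same day, so the members' share is read beside the class without a test.

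SMED30010507, the lowest member in *mll1/2*(RNAi) X1 cells by the mean of both days, had the highest called change of day 6 in *set1*(RNAi) whole worms. It had 4.19, 3.96, 4.27 and 4.31 RPKM in *set1*(RNAi) at day 6, against 3.37, 3.61, 2.99 and 2.92 RPKM in *unc22*(RNAi), and 4.999, 4.72, 4.67 and 5.27 RPKM in *set1*(RNAi) at day 9, against 3.06, 2.94, 3.57 and 3.15 RPKM in *unc22*(RNAi). No library overlapped between groups, and the log2FC values were 0.33 ± 0.08 (SE from limma, adjusted p = 0.0060) and 0.56 ± 0.08 (adjusted p = 1.4e-05). In *mll1/2*(RNAi) whole worms the same transcript fell at day 9, by 0.50 on the log2 scale (adjusted p = 0.017), a call lost without *unc22*(RNAi) replicate 1 (0.053) or 3 (0.052).

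SMED30025755 was the lowest called member in *set1*(RNAi) whole worms at day 6. It had 19.5, 20.1, 18.9 and 17.0 RPKM in *set1*(RNAi), against 23.6, 25.9, 25.2 and 24.3 RPKM in *unc22*(RNAi), with a log2FC of -0.38 ± 0.06 (SE from limma, adjusted p = 3.2e-04). At day 9 it had 15.7, 15.6, 13.8 and 13.0 RPKM in *set1*(RNAi), against 24.9, 23.9, 24.1 and 23.4 RPKM in *unc22*(RNAi), with a log2FC of -0.71 ± 0.06 (limma, adjusted p = 5.9e-08). The groups were apart at both days, and the effect was larger at day 9 by limma's interaction test (difference -0.33, adjusted p = 0.024).

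The interaction between days was called for 7 of 91 members (8.38% of IDs tested). SMED30003676, the member most abundant in whole worms, varied several-fold between libraries of a group. It had 307, 354, 261 and 854 RPKM in *set1*(RNAi) whole worms at day 6, against 380.0, 289, 439.7 and 277 RPKM in *unc22*(RNAi), overlapping groups. At day 9 it had 334, 362, 273 and 113 RPKM in *set1*(RNAi), against 1485, 749.7, 578 and 787 RPKM in *unc22*(RNAi), which were apart, with a log2FC of -1.77 ± 0.38 (SE from limma, adjusted p = 0.0010). The effects of the days differed by -1.98 (adjusted p = 0.028), and the *unc22*(RNAi) mean was 899.8 ± 401 RPKM at day 9 and 346 ± 77.3 RPKM at day 6.

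SMED30026960 (302 bases) had the highest called change of day 9. It had 3.07, 2.85, 3.23 and 3.32 RPKM in *set1*(RNAi) whole worms at day 9, against 0.792, 1.00, 1.88 and 1.45 RPKM in *unc22*(RNAi), without overlap, with a log2FC of 1.06 ± 0.18 (SE from limma, adjusted p = 1.5e-04). At day 6 it had 2.25, 1.51, 2.04 and 1.39 RPKM in *set1*(RNAi), against 1.71, 1.57, 1.60 and 2.68 RPKM in *unc22*(RNAi), which overlapped, and the effects of the days differed by 1.11 (adjusted p = 0.012). In *mll1/2*(RNAi) whole worms it fell at day 12, by 1.07 on the log2 scale (adjusted p = 0.021), a call lost without *mll1/2*(RNAi) replicate 3 (0.076) or 4 (0.058).

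SMED30020872, rare in X1 cells, changed little but evenly in *set1*(RNAi) whole worms. It averaged 69.9 ± 2.90 RPKM in *set1*(RNAi) and 60.6 ± 1.798 RPKM in *unc22*(RNAi) at day 6, and 74.3 ± 2.13 RPKM in *set1*(RNAi) and 64.3 ± 0.682 RPKM in *unc22*(RNAi) at day 9 (SD, n = 4 each). Its log2FC values were 0.20 ± 0.03 (SE from limma, adjusted p = 6.4e-04) and 0.21 ± 0.03 (adjusted p = 1.3e-04), and the groups did not overlap.

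Both whole-worm tables tested 88 of the members, and 13 members passed neither filter. At day 9, 5 of the 88 were lower after both knockdowns (1.53% of 17919 IDs), out of 15 after *mll1/2*(RNAi) and 11 after *set1*(RNAi). Over all IDs, 29.6% of those lower after *mll1/2*(RNAi) were lower after *set1*(RNAi), and 6.21% the other way round. Another 5 were higher after both (1.31%), out of 7 and 32, where the shares over all IDs were 32.5% and 6.51%. Whether the members' overlap differs from that of all IDs was not tested.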

How the data were processed

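The authors sequenced polyA RNA and deposited RPKM values in 4 tables, 1 per experiment and tissue. Per the submitters' processing notes, CASAVA 1.8.2, Bowtie and edgeR were used. Of the genome build, transcript set and read counting nothing is given in the sources used here, so values of near-identical transcripts are uncertain. Groups came from the labels, and 16 columns of the *set1* X1 table could be placed by group only. Whole reads and transcript lengths were recovered from the steps in the RPKM values (lengths solved for 99.5% of IDs in the *mll1/2* X1 table and 100% in the others, and all values of those IDs within 0.01 of a whole read), for depth and for limma-voom. The ratio of the library size implied by the RPKM scale to the listed reads ran from 0.704 to 1.15, so deposited values carry a scaling factor. The lowest ratios were those of *unc22*(RNAi) X1 replicates 2, 3 and 4 of day 12, at 0.763, 0.704 and 0.760. Replicate 1 of that group was at 0.995.

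Within each table, the log2(RPKM + 0.5) values of all 16 libraries entered a group-means model in limma 3.58.1 (lmFit, eBayes with trend) in R 4.3.3, for IDs with a mean RPKM of at least 1. Tests were two-sided, with Benjamini-Hochberg adjustment over all IDs tested, and called under 0.05. The scale understates changes of low transcripts. The fits were tested on simulated data. Limma-voom with trimmed-mean scaling was an alternative. Python 3.11.15 and pandas 2.3.3 prepared the tables.

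Same-numbered libraries of *mll1/2* whole worms at day 12 deviated together in all 4 pairs (r from 0.170 to 0.407), so the numbers were taken to pair them there. Counts, SEs and p-values are from the unpaired fit unless pairing or the replicate block is named. Members and named transcripts were chosen with earlier results of these data known. Named were the 4 members lowest in *mll1/2* X1 cells, the 3 most abundant in control X1 cells, the lowest and highest called member of each comparison, up to 4 called in 1 direction at both days in *mll1/2* whole worms, those at the rule's edges, the 2 at each end of the X1 to whole-worm ratio and up to 3 in no whole-worm table.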

Additional observations from a re-analysis of the deposited data

Results flagged for a closer look

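Groups of 4 libraries were searched for a library far from the other 3, by Dixon's ratio of its gap to the group's range. Of 148 groups examined, 12 had one, and chance gives about 1 group in 20. In *mll1/2*(RNAi) X1 cells at day 12, replicate 1 had the lowest SMED30017629 level (17.8 RPKM), and in *unc22*(RNAi) X1 cells of day 9, replicate 4 had the lowest SMED30004397 level (1.39 RPKM). In *mll1/2*(RNAi) whole worms at day 12, replicate 1 was highest for SMED30027818 (99.02 RPKM). In *unc22*(RNAi) whole worms of that experiment, replicate 1 of day 9 was lowest for SMED30017629 (4.09 RPKM), and replicate 1 of day 12 was lowest for SMED30013596 (1.11 RPKM) and SMED30025181 (33.2 RPKM). The median log2 level over 92 members was lowest in *unc22*(RNAi) replicate 4 of day 9 (3.702). In the *set1* experiment, SMED30008243 was highest in *set1*(RNAi) X1 library a (9.83 RPKM) and in *unc22*(RNAi) X1 library c (13.9 RPKM) of day 6. In *unc22*(RNAi) X1 cells of day 6, SMED30033647 was lowest in library c (20.4 RPKM) and SMED30017204 in library d (34.3 RPKM). SMED30026960 was highest in *unc22*(RNAi) whole-worm replicate 4 of day 6 (2.68 RPKM).

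The effect of *set1*(RNAi) in whole worms differed between days for 3 named members by limma's interaction test. The effect at day 9 minus that at day 6 was -1.98 for SMED30003676 (adjusted p = 0.028), -0.33 for SMED30025755 (adjusted p = 0.024) and 1.11 for SMED30026960 (adjusted p = 0.012).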

How the results depend on the processing

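Counts of members called were recomputed under 2 other pseudocounts, no filter, quantile and median scaling, weighted libraries and limma-voom. For *mll1/2*(RNAi) whole worms, weighting the libraries gave 52 calls at day 9 and 42 at day 12, against 23 and 17, and the cause was not tested. The other fixed settings kept each count within 1.5 times its value. With single libraries left out the count lay between 11 and 26 for *mll1/2*(RNAi) whole worms at day 9 (14 without *unc22*(RNAi) replicate 2) and between 8 and 22 at day 12. The count over all IDs lay between 636 and 1988 at day 9 and between 253 and 1429 at day 12. The members' count lay between 10 and 19 for *set1*(RNAi) X1 cells at day 6 (1788 to 3213 over all IDs). For *set1*(RNAi) whole worms it lay between 8 and 13 at day 6 (2416 to 2979) and between 38 and 46 at day 9 (7378 to 8307). The number of members was 170 with an *mll1/2* limit of -0.8, 71 with -1.2 and 69 with a *set1* window of 0.3, and lay between 103 and 122 with single libraries left out.

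With the replicate block, *mll1/2*(RNAi) whole worms gave 21 calls at day 9 (1478 over all IDs) and 21 at day 12 (1398), the latter 17 lower and 4 higher. The *set1*(RNAi) whole worms gave 15 at day 6 (3160 over all IDs) and 45 at day 9 (8281). At day 12 of *mll1/2*(RNAi), where the numbers pair the libraries, the block ended no named call. Same-numbered libraries deviated together (r over 0.1) in at most 2 of 4 pairs in the other whole-worm comparisons, and there the block moved SMED30017629 (adjusted p = 0.056) and SMED30010356 (0.074) at day 9 of *mll1/2*(RNAi) and SMED30027818 (0.052) at day 9 of *set1*(RNAi) over the threshold. No paired fit could be made in *set1* X1 cells, whose columns carry no sample of their own.

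Over 39 named results and the settings that keep all libraries, 295 values kept their side of the threshold, 11 lost the call and 1 gained it (SMED30008243 in *mll1/2*(RNAi) whole worms at day 9, adjusted p = 0.0094 with libraries weighted). With libraries left out 268 kept their side and 44 lost the call. None changed direction. Depth limits the X1 values, since members had a median of 14.5 reads or fewer per *mll1/2*(RNAi) library.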
